A study of Homo sapiens with 6 samples.

Results

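The lysosome gene set described here held the cathepsins, the lysosome-associated membrane proteins (LAMPs) and the vacuolar proton pump, and it was compared between *RRM2*-overexpressing and wild strain TPC-1 cells. Members were the protein-coding genes whose symbol is CTS followed by 1 letter, LAMP followed by a digit, or begins with ATP6V or ATP6AP. This rule used names alone and found 46 of the 58735 genes in the deposited table. They comprised 15 cathepsins, 4 LAMPs, 9 genes of the membrane sector V0 of the pump, 13 genes of its catalytic sector V1 and 3 accessory genes. The remaining 2 carry a subunit's name without encoding one, namely *ATP6V1FNB*, a neighbour of *ATP6V1F*, and the readthrough locus *ATP6V1G2-DDX39B*. Of the 46 members, 31 passed the filter on low values and were tested, and 15 did not.

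Lysosomes break down proteins, lipids and sugars at acid pH. The vacuolar ATPase makes that acid: its V1 sector hydrolyses ATP in the cytosol and turns a rotor in the V0 sector, which carries protons across the membrane. Cathepsins are the lysosomal proteases, most of them cysteine proteases that are made as inactive precursors and matured at low pH, whereas LAMPs coat the inner face of the lysosomal membrane with sugar chains. In the thyroid, cathepsins cut thyroglobulin to release hormone. In carcinomas, they are also secreted and cleave matrix proteins, and pump subunits can reach the cell surface.

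TPC-1 is a cell line from a human papillary thyroid carcinoma. RNA sequencing was used to ask how *RRM2*, the small subunit of ribonucleotide reductase, altered gene expression when overexpressed. The wild strain group was genotype WT, and the RRM2-OE-TPC-1 group was the same line after infection with a lentivirus (LV18) in which a CMV promoter drives *RRM2*, followed by selection with puromycin. Each group had 3 libraries, stated by the submitters to be biological triplicates. No library infected with an empty vector was analysed here, so the effects of *RRM2*, of infection and of puromycin selection cannot be told apart. The RRM2-OE libraries 2 and 3 carry the genotypes RRM3 overexpression and RRM4 overexpression in their labels although their titles name RRM2, and the study's methods describe poly(A) selection where the labels describe removal of ribosomal RNA and digestion of linear RNA with RNase R.

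Values were FPKM, that is fragments scaled by gene length and by library depth. The length was that of all annotated exons of a gene joined, not of 1 transcript. Levels, ranks and shares of different genes are therefore by FPKM and depend on these lengths. *RRM2* stood at 9.17, 9.05 and 8.52 FPKM in the wild strain libraries and at 50.4, 47.5 and 47.2 FPKM in the RRM2-OE libraries (log2 fold change 2.43, limma adjusted p = 1.1e-08), so all 3 RRM2-OE libraries matched their titles. Between 14317091 and 17084067 reads fell on genes per library, and mitochondrial genes took 4.29 to 5.89% of them. RRM2-OE library 1 stood apart from its group, since its chi-square per gene was 5.3 against library 2 and 6 against library 3, while libraries 2 and 3 differed by only 1.82 and the wild strain pairs by 3.05 to 3.23. Of the thyroid lineage markers, *PAX8* was at 69.3 ± 1.84 FPKM in the wild strain and 58.5 ± 1.92 FPKM in RRM2-OE (SD, n = 3), a fall of 0.24 on the log2 scale. *FOXE1* fell by 0.42 (4.30 ± 0.107 to 3.19 ± 0.0799 FPKM) and *HHEX* rose by 0.87 (2.47 ± 0.119 to 4.61 ± 0.176 FPKM), *NKX2-1* was at 0 in all 6 libraries, and none of *TG*, *TSHR* and *SLC5A5* exceeded 0.113 FPKM. None of the 8 leukocyte markers passed the filter, *MPO* and *CD3E* were at 0 throughout, and *CD68* did not exceed 0.0316 FPKM. Of 6 epithelial markers 3 were tested, of which the keratins *KRT18* (41.2 ± 1.78 to 85.2 ± 1.26 FPKM, log2 fold change 1.05) and *KRT8* (0.43) rose and *KRT7* did not pass. The others, *EPCAM*, *CDH1* and *KRT19*, did not exceed 0.125 FPKM in any library. Of 5 fibroblast markers 2 were tested, of which *COL1A1* fell by 0.61 (0.816 ± 0.0833 to 0.501 ± 0.0852 FPKM), *PDGFRB* did not pass, and *COL3A1* and *DCN* were at 0. Of 4 endothelial markers *PECAM1* alone was tested and was at 0.924 ± 0.102 FPKM against 0.0588 ± 0.0356 FPKM, while *KDR* was at 0. *PECAM1* was under the filter's minimum of 0.5 FPKM in every RRM2-OE library, so it entered the test through the wild strain alone and had to differ. The part of these marker changes in the results was not tested.

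The lysosomal promoters are known for the motif CACGTG, which lies at the centre of the longer CLEAR element bound by TFEB and its relatives. The RefSeq window from 250 bases before to 50 bases after the transcription start (GRCh38.p14) was found for 30 members. CACGTG, which reads the same on both strands, was present in 8 of these 30 windows (26.7%) and in 7.43% of all 27305 windows of the table. TCACGTGA, which contains CACGTG, was in 4 of the 30 (13.3%) and in 1.04% of all windows, and the 10-letter CLEAR palindrome built on it was in 1 of the 30, that of *ATP6V1G1*. The stretches around the motif are shown for the 7 tested members that hold it, because these are the members whose RNA could be compared. Each is written 5′ to 3′ on the gene's strand from 20 bases before the first copy to 20 bases after the last, with CACGTG in capitals.
LAMP1: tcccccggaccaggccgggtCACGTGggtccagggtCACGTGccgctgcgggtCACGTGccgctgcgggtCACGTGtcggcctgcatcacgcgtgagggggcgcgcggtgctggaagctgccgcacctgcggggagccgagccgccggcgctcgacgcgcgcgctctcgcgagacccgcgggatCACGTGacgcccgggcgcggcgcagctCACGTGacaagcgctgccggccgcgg
ATP6V0B: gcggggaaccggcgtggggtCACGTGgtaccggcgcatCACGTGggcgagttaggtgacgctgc
ATP6V0D1: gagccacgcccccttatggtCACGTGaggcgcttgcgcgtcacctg
ATP6V0E2: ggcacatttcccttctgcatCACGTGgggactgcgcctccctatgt
ATP6V1G1: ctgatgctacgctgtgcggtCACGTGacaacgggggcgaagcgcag
CTSA: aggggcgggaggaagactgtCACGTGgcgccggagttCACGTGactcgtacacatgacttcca
CTSD: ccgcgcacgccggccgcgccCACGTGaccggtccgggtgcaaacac
They lie at chr13:113297027-113297263 (plus strand) for *LAMP1*, chr1:43974883-43974946 (plus) for *ATP6V0B*, chr16:67481191-67481236 (minus) for *ATP6V0D1*, chr7:149872876-149872921 (plus) for *ATP6V0E2*, chr9:114587691-114587736 (plus) for *ATP6V1G1*, chr20:45891273-45891335 (plus) for *CTSA* and chr11:1763949-1763994 (minus) for *CTSD*. *LAMP1* held 6 copies, *ATP6V0B* and *CTSA* 2 each and the others 1, and the copies in the tested pump and cathepsin genes began 25 to 72 bases upstream of the start. The eighth window with the motif was that of *CTSF*, which was not tested. Holders of the motif went in both directions: it was in 4 of the 12 members with a window that were higher in RRM2-OE, in 2 of the 4 that were lower and in 1 of the 4 that did not pass. Among all tested genes with a window it was in 11.5% of those that were higher and 9.36% of those that were lower. A match describes the letters in the window and is not a measured binding site.

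Testing used limma on log2(FPKM + 0.1) over 13621 genes, and a gene passed at a Benjamini-Hochberg adjusted p of 0.05 or less. Fold changes on this scale understate those of low genes. Of the 31 tested members, 17 passed with higher and 6 with lower RNA in RRM2-OE, and 8 did not pass. Of all tested genes, 67.6% passed, 34.9% higher and 32.7% lower, so the share of members that passed (74.2%) was near the background while the share that passed with higher RNA (54.8%) was above it. The median log2 fold change was 0.28 over the tested members and 0.01 over all tested genes. A change of at least 1 on the log2 scale in addition was reached by 2 members with higher RNA, *CTSV* and *ATP6V0D2*, and by 0 with lower RNA (also 0 by limma-voom), the lowest estimate being -0.77, against 4.48% and 6.97% of all tested genes (11.5% in both directions). In 24 members the libraries of the groups did not overlap, against 72.2% of all tested genes. Without RRM2-OE library 1, 18 members were higher and 6 lower. In bulk RNA a change in RNA per cell and a change in the mix of cells cannot be told apart. The member *ATP6V0D2* was under the minimum of 0.5 FPKM in every wild strain library, so it entered the test through RRM2-OE alone and had to differ. Among the 30 other tested members 16 were higher and 6 lower, with a median of 0.27, and *CTSV* alone changed by at least 1.

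**Figure D1:**
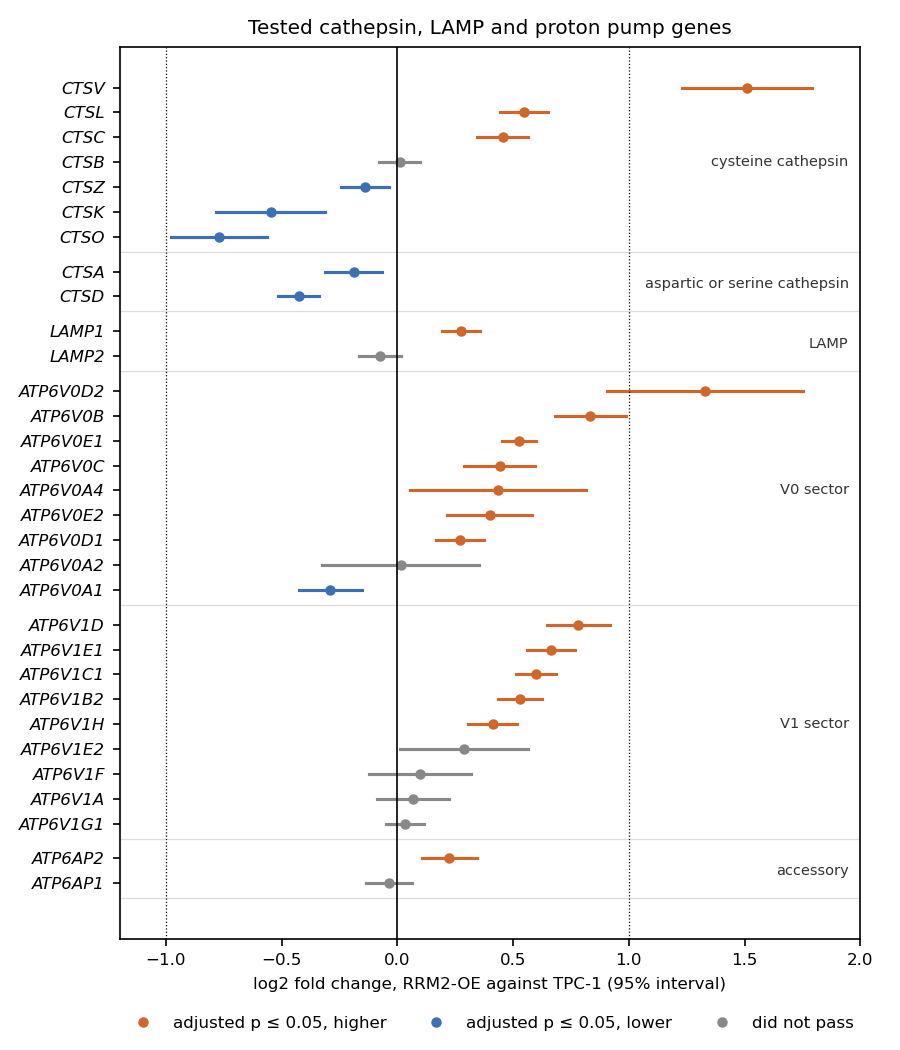
Log2 fold change of each tested member in RRM2-OE against TPC-1 on the log2(FPKM + 0.1) scale, with 95% intervals from limma (n = 3 per group), colour showing the call and dotted lines a change of 1. V0 and V1 genes lie mostly to the right of 0 (median 0.42), while cathepsins run from -0.77 (*CTSO*) to 1.51 (*CTSV*).

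The proton pump, accessory genes included, held 13 of the 17 higher calls (*ATP6V0D2* among them) and 20 of the 31 tested members. The share that passed with higher RNA was 65% of these 20, against 54.8% of all tested members and 34.9% of all tested genes. Of the 18 tested V0 and V1 genes, 12 were higher, 1 was lower (*ATP6V0A1*) and 5 did not pass, with a median log2 fold change of 0.42. Without *ATP6V0D2* the counts were 11 higher and 1 lower of 17, with a median of 0.41. Summed over its 9 members, which leave out *TCIRG1*, a source of subunit a with another kind of symbol, V0 RNA was at 111.8, 109.2 and 108.9 FPKM in the wild strain and at 155, 156 and 154 FPKM in RRM2-OE, a ratio of means of 1.41. The V1 sum was at 221, 226 and 218 FPKM against 270.6, 270.2 and 275 FPKM, a ratio of 1.23. The groups did not overlap for either sum (exact two-sided permutation p = 0.1, the smallest that 3 against 3 libraries allow). The ratio of V1 to V0 RNA was 2.02 ± 0.0469 in the wild strain and 1.75 ± 0.0282 in RRM2-OE (exact permutation p = 0.1). The V0 sum and this ratio rest largely on *ATP6V0E1*, which gave 75.0 of 110 FPKM in the wild strain and 108 of 155 FPKM in RRM2-OE. A ratio without *ATP6V0E1* was not computed. By gene, the median log2 fold changes were close, at 0.43 for V0 and 0.41 for V1. With *TCIRG1* in the sum, V0 RNA was 140.3 ± 1.45 against 182 ± 2.38 FPKM, a ratio of 1.29, and the ratio of V1 to V0 was 1.58 ± 0.0322 against 1.50 ± 0.0277 (exact permutation p = 0.1 for both).

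All 9 V0 genes were tested, of which 7 were higher and 1 lower, with a median log2 fold change of 0.43, and 6 higher and 1 lower of 8 without *ATP6V0D2*. *ATP6V0E1* (ENSG00000113732, chr5:172983757-173035445), a small subunit e of the membrane sector and by FPKM the most abundant gene of the pump, was at 75.8, 76.1 and 73.0 FPKM in the wild strain and at 107, 109.7 and 108 FPKM in RRM2-OE. It rose by 0.53 on the log2 scale (SE 0.0318, limma adjusted p = 2.9e-06). *ATP6V0B* (ENSG00000117410, chr1:43974487-43978295), which encodes the c″ subunit of the proton-carrying ring, was at 10.4, 9.07 and 10.5 FPKM against 18.8, 17.1 and 17.8 FPKM. Every RRM2-OE library was above every wild strain library, and the log2 fold change was 0.83 (SE 0.0665, limma adjusted p = 1.3e-05). *ATP6V0C*, the c subunit that makes up the rest of the ring, was at 6.20, 5.99 and 6.70 FPKM against 9.24, 8.34 and 8.21 FPKM. It rose as well, by 0.44 (limma adjusted p = 4.7e-04), and 57.5% of its exon bases overlap a second annotated gene on the same strand, *AC093525.2*, whose mean was 0.0213 FPKM. How reads in shared bases were counted is not given in the sources used here. The levels of *ATP6V0C* and of subunit c may therefore be understated.

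Subunit d, which joins the ring to the central stalk, is made from *ATP6V0D1* in most tissues and from *ATP6V0D2* in osteoclasts, kidney and some other cells. *ATP6V0D2* was at 0.398, 0.296 and 0.375 FPKM in the wild strain and at 0.873, 1.24 and 1.04 FPKM in RRM2-OE, from 15 to 64 reads per library. Its log2 difference was 1.33 (SE 0.183), and 0.59 with a pseudocount of 1. Because the filter admitted it through RRM2-OE alone, the p is given from the fit without a filter on low values, where limma gave an adjusted p of 0.0047. *ATP6V0D1* rose by 0.27, from 7.82 ± 0.263 to 9.46 ± 0.105 FPKM. *ATP6V0D2* nevertheless remained the minor form, with 4.35 ± 0.515% of subunit d RNA in the wild strain and 9.99 ± 1.49% in RRM2-OE, and the libraries of the groups did not overlap (exact permutation p = 0.1).

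Subunit a anchors the pump in different membranes and was the one V0 position with less RNA in RRM2-OE. *ATP6V0A1*, a widely expressed form, was at 6.97, 6.46 and 6.50 FPKM in the wild strain and at 5.56, 5.55 and 5.13 FPKM in RRM2-OE. All RRM2-OE libraries were below all wild strain libraries, and it fell by 0.29 on the log2 scale (limma adjusted p = 0.0026). *TCIRG1*, which encodes the a3 form of lysosomes and osteoclasts but is no member because of its symbol, was the main source of subunit a, with 30.3 ± 0.163 against 26.2 ± 1.73 FPKM and a fall of 0.21 (limma adjusted p = 0.0052). *ATP6V0A4*, the form of kidney intercalated cells, was low at 0.661 ± 0.120 against 0.924 ± 0.0931 FPKM and passed narrowly (log2 fold change 0.43, limma adjusted p = 0.045). It did not pass without wild strain library 2 (adjusted p = 0.12), wild strain library 3 (0.12), RRM2-OE library 2 (0.13) or RRM2-OE library 3 (0.10). *ATP6V0A2*, a Golgi form, did not pass, with a log2 difference of 0.01 and a 95% interval from -0.33 to 0.35. Together the 4 genes gave 38.4 ± 0.183 FPKM in the wild strain and 33.3 ± 1.82 FPKM in RRM2-OE, and *TCIRG1* made up 79.0% and 78.7% of this.

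**Figure D2:**
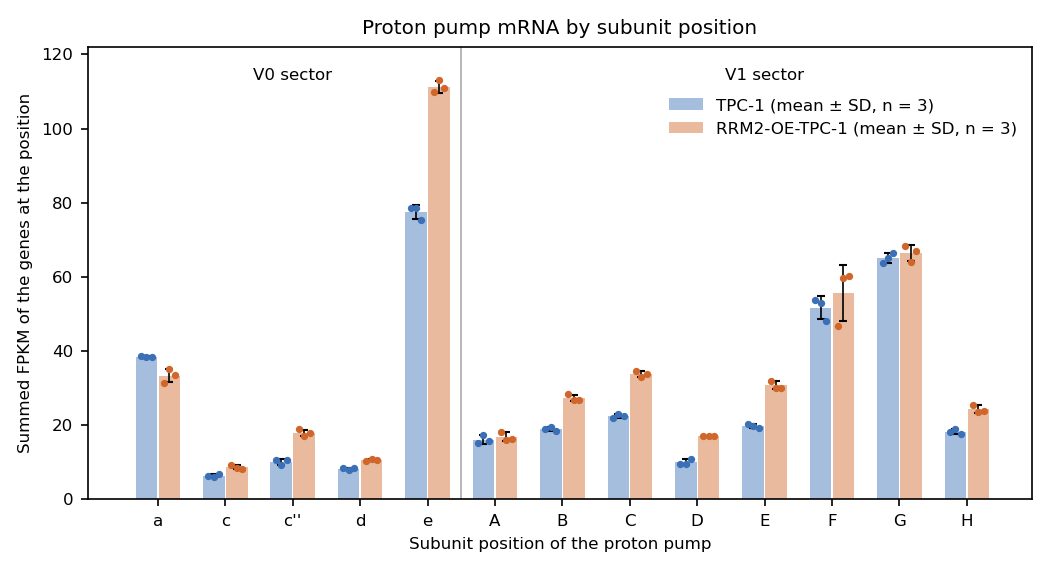
Summed FPKM of the genes at each subunit position of the proton pump, bars giving the mean and error bars the SD of 3 libraries per group, points the libraries (*TCIRG1* is counted in position a). Positions a, A, F and G do not have higher RNA in every RRM2-OE library, whereas c, c″, d, e, B, C, D, E and H do.

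In the V1 sector, 9 of 13 genes were tested, of which 5 were higher, 4 did not pass and 0 were lower, all 9 estimates being above 0. *ATP6V1D* (ENSG00000100554, chr14:67294371-67360265), a subunit of the turning central stalk, was at 9.40, 9.41 and 10.8 FPKM in the wild strain and at 17.0, 16.9 and 17.1 FPKM in RRM2-OE. It rose by 0.78 (SE 0.059, limma adjusted p = 9.8e-06), and 6.33% of its exon bases overlap *EIF2S1* on the opposite strand, which was expressed at a mean of 24.6 FPKM. *ATP6V1E1*, part of the peripheral stalks that hold the catalytic head still, was at 18.9, 18.0 and 17.6 FPKM against 30.2, 28.1 and 28.2 FPKM. It rose by 0.66 (SE 0.0445, limma adjusted p = 5.1e-06). *ATP6V1C1*, which clamps the stalks to the membrane sector and is released when the pump comes apart, was at 21.4, 22.7 and 22.0 FPKM against 34.2, 32.6 and 33.4 FPKM, a rise of 0.60 (limma adjusted p = 3.4e-06). *ATP6V1B2*, the widely expressed form of the non-catalytic B subunit of the head, was at 18.8, 19.4 and 18.1 FPKM against 28.2, 26.8 and 26.6 FPKM, a rise of 0.53 (limma adjusted p = 1.2e-05). *ATP6V1H*, a subunit that regulates ATP hydrolysis, was at 18.0, 19.0 and 17.6 FPKM against 25.5, 23.6 and 23.7 FPKM and rose by 0.41 (limma adjusted p = 8.8e-05). For these 5 genes no RRM2-OE library reached down into the range of the wild strain.

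The catalytic A subunit was among the genes that did not pass. *ATP6V1A*, which binds and splits ATP, was at 15.2, 17.3 and 15.6 FPKM in the wild strain and at 18.2, 16.0 and 16.2 FPKM in RRM2-OE, so the groups overlapped and the log2 difference was 0.07 (95% interval -0.09 to 0.22, limma adjusted p = 0.40). *ATP6V1G1*, a peripheral stalk subunit and by FPKM the most abundant V1 gene, was at 63.6, 64.9 and 66.2 FPKM against 68.3, 64.0 and 66.9 FPKM, a log2 difference of 0.03 (95% interval -0.05 to 0.11). *ATP6V1F*, a central stalk subunit, was at 53.8, 53.0 and 48.1 FPKM against 46.8, 59.6 and 60.3 FPKM, and its lowest value of all 6 libraries was that of RRM2-OE library 1. The log2 difference was 0.10 (limma adjusted p = 0.39) with that library and 0.22 (limma adjusted p = 0.0088) without it. *ATP6V1E2*, a form of subunit E best known from testis, was at 1.54 ± 0.223 against 1.90 ± 0.115 FPKM, a log2 difference of 0.29 that did not pass (95% interval 0.01 to 0.57, limma adjusted p = 0.063). It passed without wild strain library 2, at 0.40 (limma adjusted p = 0.017). Its sister *ATP6V1E1* made up 92.2% of subunit E RNA in the wild strain and 93.8% in RRM2-OE.

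By position, B stood at 18.9 and 27.3 FPKM in the wild strain and RRM2-OE, C at 22.4 and 33.8, D at 9.88 and 17.0, and E at 19.7 and 30.7. In contrast, A stood at 16.0 and 16.8 FPKM, F at 51.6 and 55.6, and G at 65.0 and 66.5. Genes that passed and genes that did not occurred within the same parts of the pump. In the head, *ATP6V1B2* rose and *ATP6V1A* did not pass, and in the peripheral stalks *ATP6V1E1* rose and *ATP6V1G1* did not pass.

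Of the accessory genes, *ATP6AP1*, which helps assemble the membrane sector, was at 41.3, 38.3 and 39.0 FPKM in the wild strain and at 37.1, 40.1 and 38.3 FPKM in RRM2-OE. It did not pass, with a log2 difference of -0.04 (95% interval -0.14 to 0.06). *ATP6AP2*, also known as the prorenin receptor, was at 8.68, 9.09 and 9.20 FPKM against 11.1, 10.4 and 10.1 FPKM and rose by 0.22 (limma adjusted p = 0.0052). A further list of 14 genes held factors that build or regulate the pump and also *TCIRG1*, which encodes a subunit. All 14 were tested, of which 3 were higher and 5 lower, with a median log2 fold change of -0.17. The share higher was 21.4%, against 34.9% of all tested genes, of which 32.7% were lower. The 3 higher ones were *VMA21* and *TMEM199*, assembly factors of the endoplasmic reticulum, and *OSTM1*, the partner of the chloride transporter *CLCN7*. The 5 that fell were *NCOA7* (-0.68), *DMXL2* (-0.35), *CLCN7* (-0.30), *DMXL1* (-0.26) and *TCIRG1* (-0.21). The pump genes lie on many chromosomes, some of which hold several. Chromosome 8 holds *ATP6V0D2*, *ATP6V1B2*, *ATP6V1C1* and *ATP6V1H*, all of them higher. Chromosome 7 holds *ATP6V0A4* and *ATP6V0E2*, both higher, and *ATP6V1F*, which did not pass. Chromosome 16 holds *ATP6V0C* and *ATP6V0D1*, both higher. The other 506 tested genes of chromosome 8 had a median log2 fold change of 0.04, and the 14 tested pump genes outside it had a median of 0.34, with 8 higher and 1 lower.

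The cathepsins moved in both directions. Of the 15, 9 were tested, with a median log2 fold change of -0.14. Of these 9, 3 were higher (*CTSV*, *CTSL* and *CTSC*), 5 were lower (*CTSO*, *CTSK*, *CTSD*, *CTSA* and *CTSZ*) and *CTSB* did not pass. The share that passed was 88.9%, against 67.6% of all tested genes. The share that passed with higher RNA was 33.3%, near the 34.9% of all tested genes, of which 32.7% were lower. The summed RNA of the cathepsins was at 660, 613 and 642 FPKM in the wild strain and at 605, 611 and 607 FPKM in RRM2-OE, a ratio of means of 0.952 (exact permutation p = 0.1). The lowest wild strain library lay just above the highest RRM2-OE library. *CTSZ* and *CTSB* together made up 77.8 ± 0.267% of it in the wild strain and 77.8 ± 0.0583% in RRM2-OE.

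*CTSV* (ENSG00000136943, chr9:97029679-97039643), a close relative of *CTSL* best known from thymus and testis, was at 0.969, 0.949 and 0.774 FPKM in the wild strain and at 3.02, 2.58 and 2.60 FPKM in RRM2-OE. It had the largest rise of the tested members (log2 fold change 1.51, SE 0.121, limma adjusted p = 1.4e-05), 3.05-fold in mean FPKM, on 58 to 208 reads per library. *CTSL* (ENSG00000135047, chr9:87725519-87731393), the broadly expressed endopeptidase that lies on the same chromosome, was at 24.6, 22.3 and 24.0 FPKM against 35.2, 34.6 and 33.9 FPKM. It rose by 0.55 (SE 0.0441, limma adjusted p = 1.4e-05). The ratio of *CTSL* to *CTSV* was 25.4, 23.5 and 31.0 in the wild strain and 11.7, 13.4 and 13.0 in RRM2-OE (exact permutation p = 0.1 for the difference between groups). *CTSL* remained the more abundant by FPKM in every library. *CTSC*, the dipeptidyl peptidase that activates serine proteases of immune cells, was at 9.64, 8.91 and 9.31 FPKM against 13.2, 12.4 and 12.7 FPKM. It rose by 0.45 (SE 0.0469, limma adjusted p = 5.7e-05), with no overlap between the groups.

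Among the cysteine cathepsins that fell, *CTSO* showed the largest fall of the tested members, from 5.09, 6.04 and 5.44 FPKM to 2.93, 3.48 and 3.19 FPKM (log2 fold change -0.77, SE 0.0893, limma adjusted p = 1.1e-04). *CTSK*, the collagen-cleaving enzyme of osteoclasts that also occurs in thyroid cells, was at 3.27, 4.19 and 3.36 FPKM against 2.42, 2.38 and 2.46 FPKM. It fell by 0.55 (SE 0.103, limma adjusted p = 0.0017). *CTSZ*, a carboxypeptidase and the most abundant member by FPKM, was at 277, 253 and 278 FPKM against 247, 243 and 243 FPKM. It fell by 0.14 (limma adjusted p = 0.022), and the call was lost without wild strain library 1 (adjusted p = 0.066), wild strain library 3 (0.085), RRM2-OE library 2 (0.067) or RRM2-OE library 3 (0.065). *CTSB*, the second most abundant member by FPKM and a cysteine protease often studied in tumour invasion, was at 237, 222 and 224 FPKM against 224, 233 and 229.9 FPKM. Its gene length was 7428 bases against 2038 for *CTSZ*, and it had 164496 reads in all against 50725, so by reads it stood above *CTSZ*. The groups overlapped and the log2 difference was 0.01 (95% interval -0.08 to 0.10, limma adjusted p = 0.84), so a difference beyond these bounds was not detected in the most deeply read cathepsin, which had 24088 to 29620 reads per library.

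Both tested cathepsins outside the cysteine class fell. *CTSD* (ENSG00000117984, chr11:1752752-1764573), the main aspartic protease of lysosomes, was at 58.7, 54.2 and 57.6 FPKM in the wild strain and at 42.9, 42.3 and 41.5 FPKM in RRM2-OE. It fell by 0.43 (SE 0.0386, limma adjusted p = 2.7e-05), and *AC068580.4*, which covers 41.7% of its exon bases on the same strand, was at a mean of 0.0765 FPKM. The level of *CTSD* may be understated, as for *ATP6V0C*. *CTSA*, a serine carboxypeptidase that also protects β-galactosidase and neuraminidase, was at 43.6, 40.5 and 39.9 FPKM against 33.9, 37.7 and 37.3 FPKM. It fell by 0.19 (limma adjusted p = 0.012), with no overlap between the groups. The summed RNA of the aspartic and serine class was 98.2 ± 3.84 against 78.6 ± 1.58 FPKM, and that of the cysteine class was 540.2 ± 20.2 against 529 ± 1.88 FPKM with overlapping groups.

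**Figure D3:**
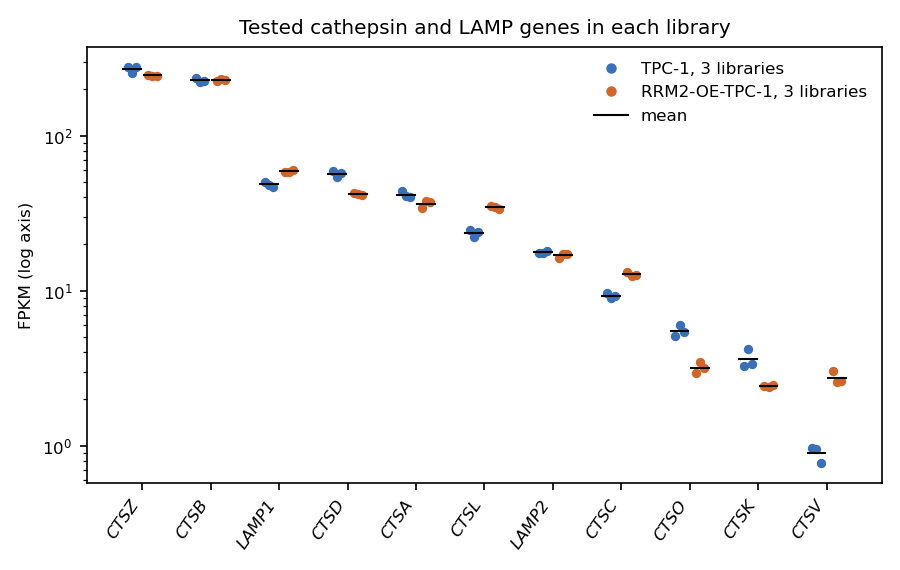
FPKM on a log axis of the tested cathepsin and LAMP genes, each point 1 library, 3 of TPC-1 and 3 of RRM2-OE-TPC-1, with lines at the group means. *CTSZ* and *CTSB* lead at 228 to 269 FPKM in TPC-1, and *CTSV*, the lowest in TPC-1, stands apart between groups at 0.897 and 2.73 FPKM.

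The inhibitors of the cysteine cathepsins were measured alongside. Of 9 cystatin genes, 3 were tested. *CST6*, which inhibits *CTSV*, *CTSL* and legumain, was at 0.237, 0.470 and 0.331 FPKM in the wild strain and at 1.37, 1.38 and 1.07 FPKM in RRM2-OE, a log2 difference of 1.65. Like *ATP6V0D2* it entered the test through RRM2-OE alone, and without a filter on low values limma gave an adjusted p of 0.0035. *CSTB*, the main cytosolic inhibitor, was at 18.1, 15.8 and 15.1 FPKM against 17.8, 21.2 and 20.4 FPKM. It passed with a log2 fold change of 0.28 (limma adjusted p = 0.018) although RRM2-OE library 1 lay within the range of the wild strain, and the call was lost without wild strain library 2 (adjusted p = 0.054), wild strain library 3 (0.061), RRM2-OE library 2 (0.062) or RRM2-OE library 3 (0.055). *CST3*, the secreted inhibitor, was at 33.0, 31.1 and 32.1 FPKM against 35.3, 32.9 and 31.9 FPKM and did not pass (log2 difference 0.06). *CSTA* did not exceed 0.0914 FPKM, *CST7* did not exceed 0.967 FPKM, and *CST1*, *CST2*, *CST4* and *CST5* were at 0 in all libraries.

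The pair of tested LAMP genes differed. *LAMP1* (ENSG00000185896, chr13:113297241-113323672), the abundant glycoprotein of the lysosomal membrane, was at 50.2, 48.4 and 46.9 FPKM in the wild strain and at 58.2, 58.1 and 60.0 FPKM in RRM2-OE. It rose by 0.28 (SE 0.0359, limma adjusted p = 2.2e-04). *LAMP2*, one splice form of which takes proteins into lysosomes in chaperone-mediated autophagy, was at 17.6, 17.6 and 18.1 FPKM against 16.2, 17.3 and 17.2 FPKM and did not pass (log2 difference -0.08, 95% interval -0.17 to 0.02). With FPKM rescaled to the reads on genes it passed as lower, at -0.13 (limma adjusted p = 0.017). The ratio of *LAMP1* to *LAMP2* was 2.85, 2.74 and 2.59 in the wild strain and 3.58, 3.37 and 3.49 in RRM2-OE (exact permutation p = 0.1).

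The 15 members under the filter added little RNA as counted. *CTSG*, *ATP6V1G3* and *ATP6V1G2-DDX39B* were at 0 in all 6 libraries, and *LAMP3*, *LAMP5*, *CTSE* and *CTSF* had at most 3 reads in any library. *ATP6V1G2-DDX39B* shares 87.65% of its exon bases with *DDX39B* (mean 23.6 FPKM) and 12.35% with *ATP6V1G2*, both on the same strand. Its 0 therefore does not show that its RNA was absent. *ATP6V1B1* shares 62.4% of its exon bases with *VAX2* on the same strand (mean 0.0206 FPKM), so its level may be understated. *CTSH*, *CTSS*, *CTSW*, *ATP6V1B1*, *ATP6V1C2*, *ATP6V1G2*, *ATP6V1FNB* and *ATP6AP1L* lay between 0.0322 and 0.419 FPKM. *ATP6V1B1*, *ATP6V1C2* and *ATP6V1G2*, the tissue-restricted forms of their subunits, gave 0.644%, 1.46% and 0.189% of the RNA at their position in the wild strain and 0.376%, 1.04% and 0.174% in RRM2-OE. *ATP6V1C2* shares 29.7% of its exon bases with *PDIA6* on the opposite strand, a gene at a mean of 59.2 FPKM.

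The surrounding lysosome genes were divided into 7 lists, which with duplicates removed held 164 genes, 147 of them tested. Of these, 47 were higher and 47 lower, with a median log2 fold change of 0.01, equal to that of all tested genes at this rounding. The share higher was 32.0%, against 34.9% of all tested genes, of which 32.7% were lower. By list it was 43.5% for the MiT/TFE and mTORC1 list, 36.4% for cathepsin processing and sorting and 39.5% for other hydrolases. It was 23.8% for membrane proteins and transporters, 21.1% for autophagy genes, 21.4% for pump assembly and 66.7% for the 3 tested cystatins. Among transcription factors of the MiT/TFE family, which drive lysosomal genes, *TFEB* was at 3.43, 3.51 and 3.19 FPKM in the wild strain and at 1.60, 1.43 and 1.58 FPKM in RRM2-OE, a fall of 1.09 (limma adjusted p = 1.3e-05). *TFE3*, the most abundant of them, fell by 0.55 (35.0 ± 2.07 to 23.8 ± 0.482 FPKM), *MITF* rose by 0.50 (1.72 ± 0.0807 to 2.48 ± 0.186 FPKM) and *TFEC* was not tested. With the lysosomal mTORC1 machinery, which holds these factors in the cytosol by phosphorylation, 10 of 23 tested genes were higher and 8 lower, with a median of 0.16.

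Of 11 tested genes of cathepsin processing and mannose 6-phosphate sorting, 4 were higher and 3 lower. The higher ones included *M6PR*, the cation-dependent mannose 6-phosphate receptor (0.65), and the lower ones *SCARB2*, the receptor that brings glucocerebrosidase to lysosomes (-0.89). The other lysosomal hydrolases split evenly, with 15 higher and 13 lower of 38 tested and a median of 0.02. The alpha-galactosidase *GLA* was at 6.19, 6.25 and 5.96 FPKM against 14.1, 15.0 and 14.7 FPKM (log2 fold change 1.24, limma adjusted p = 2.7e-07). The fucosidase *FUCA1* was at 21.8, 21.8 and 20.3 FPKM against 10.4, 9.27 and 10.9 FPKM (log2 fold change -1.06, limma adjusted p = 3.3e-06).

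Lysosomal membrane proteins and transporters had 5 higher and 8 lower of 21 tested, with a median of -0.21. *ABCA2*, a lipid transporter, was at 41.6, 41.3 and 40.6 FPKM against 9.41, 9.81 and 9.64 FPKM, and *TPCN1*, an endolysosomal cation channel, at 19.5, 19.3 and 20.4 FPKM against 4.61, 4.74 and 4.49 FPKM. Their log2 fold changes were -2.09 and -2.07, larger in size than that of any member. Autophagy genes had 8 higher and 11 lower of 38 tested, with a median of -0.04, and *GABARAPL1*, which marks autophagosome membranes, fell by 1.12 (15.2 ± 0.0489 to 6.94 ± 0.232 FPKM).

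**Figure D4:**
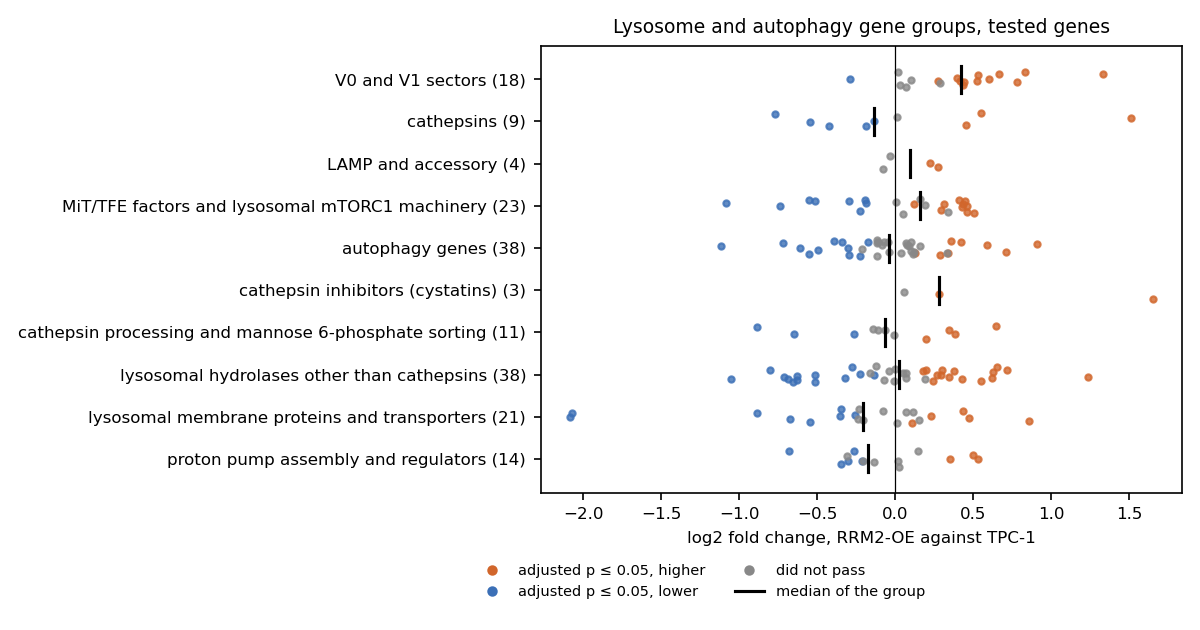
Log2 fold change of every tested gene, RRM2-OE against TPC-1, in 3 groups of members and the 7 lists, the number tested in brackets, colour showing the call and black bars the medians. V0 and V1 genes have a median of 0.42 (0.41 without *ATP6V0D2*), and the lists other than the cystatins lie between -0.21 and 0.16. The cystatin median of 0.28 rests on 3 tested genes, of which *CST6* entered the test through RRM2-OE alone.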

How the data were processed

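Gene expression was measured by RNA sequencing in 6 libraries. The authors aligned reads with HISAT2 (2.0.5), counted them per gene with featureCounts (1.5.0) and deposited FPKM, divided by gene length and depth, and their processing notes also name DESeq2 (1.20.0). The kit marks strand, while the strand setting of the counting and its treatment of reads shared between genes are not given in the sources used here. All 58735 gene positions matched GENCODE 29 on GRCh38, and all values above 0 were whole multiples of 1 read within 0.01. No deposited column of comparisons was used.

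The 46 members, the lists and the tests were chosen with earlier results of these data known. Genes with at least 0.5 FPKM and at least 10 reads in at least 3 libraries were tested with limma (3.58.1, R 4.3.3) on log2(FPKM + 0.1), letting the prior variance follow expression and adjusting p-values over all of them by Benjamini-Hochberg, after a check on simulated data. Sums and ratios were compared with the exact two-sided permutation test over libraries. P-values measure the spread between these libraries. Of 20 pseudogenes of the members, 0 reached a mean of 0.5 FPKM. The text names *RRM2*, members that passed with a log2 change of at least 0.5, the most abundant and the tested but not passing members of each class, list genes that also changed by at least 1, the cystatins, *TFEB*, *TFE3*, *MITF* and *TCIRG1*. *M6PR*, *SCARB2*, *VMA21*, *TMEM199*, *OSTM1*, *CLCN7*, *NCOA7*, *DMXL1*, *DMXL2* and further members were named after their values were seen. Alternatives were other pseudocounts, filters, scalings, protein-coding genes alone, limma-voom on recovered reads, a replicate block and each library left out.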

Additional observations from a re-analysis of the deposited data

How the results depend on the processing

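Of 465 recomputed values of single members, 439 kept their direction and call, 13 lost the call, 5 gained it and 8 changed sign. With a pseudocount of 1, 0 members (2 otherwise) and 716 of all tested genes (1560 otherwise) changed by at least 1, and the median log2 fold change was 0.30 for V0 (0.43 otherwise) and 0.35 for V0 and V1 together (0.42 otherwise). Scaling to the reads on genes moved the median of all genes from 0.01 to -0.045. It gave medians of 0.042 for LAMPs, 0.38 for V0, 0.355 for V1, 0.037 for accessory genes, -0.37 for aspartic and serine cathepsins, -0.048 for cysteine cathepsins (0.01 otherwise), 0.37 for V0 and V1 together and -0.20 for all cathepsins. The log2 ratios of summed FPKM became -0.13 for cathepsins, 0.13 for LAMPs, 0.44 for V0, 0.24 for V1 and -0.044 for accessory genes (0.01 otherwise). With *TCIRG1* added to the V0 sum, a choice made after seeing the data, its log2 ratio was 0.37 (0.50 otherwise). Under the same scaling the log2 differences of *ATP6V0A2*, *ATP6V1G1*, *CST3* and *CTSB* were -0.037, -0.026, -0.001 and -0.048, none of which passed. Leaving out 1 library at a time gave medians from 0.39 to 0.44 for V0 and V1 together and from -0.18 to -0.12 for all cathepsins, and from -0.062 to 0.10 for *ATP6V0A2* and from -0.008 to 0.038 for *CTSB*.

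Same-numbered libraries did not deviate together (correlations -0.0105, -0.00602 and -0.055), so the numbers were not taken to pair them. With the replicate block, 16 members were higher and 6 lower, since *ATP6V0A4* no longer passed (limma adjusted p = 0.085). That call was also lost without a filter (0.16), with the FPKM minimum alone (0.087) and with scaling to the reads on genes (0.064), and those of *CTSZ* (0.070) and *CSTB* (0.065) without a filter. *ATP6V1E2* passed among protein-coding genes alone (0.037) and with voom (0.030). Precision is limited by 3 libraries per group.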

Other observations

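Members were set beside the genes around them. The 10 nearest tested genes of *CTSV* had a median log2 fold change of -0.27, those of *ATP6V0B* of 0.13, those of *ATP6V1D* of 0.02, those of *CTSL* of 0.00 and those of *CTSO* of -0.01. The neighbours of *ATP6V1H* and *ATP6V1G1* had medians of -0.62 and -0.81. For *ATP6V0C* and *CTSC* the values went together with those of the neighbours, whose medians were 0.50, with 9 of 10 higher, and 0.66, with 6 of 10 higher. The same held for other members, among them *ATP6AP2* (neighbours 0.21), *ATP6V1E1* (0.32), *ATP6V0A1* (-0.22), *CTSA* (-0.18) and *CTSK* (-0.26). The neighbours of *ATP6V0D1* (-0.45), *ATP6V0E2* (-0.33) and *CTSD* (0.14) were among those that went the other way. These are descriptions chosen after the values were seen, and the part of position in the results was not tested.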
